A study of Homo sapiens with 3 samples.

Results

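The epithelial keratin genes *KRT5*, *KRT7*, *KRT8*, *KRT17*, *KRT18* and *KRT19* were examined for PRCC-TFE3 occupancy, with the members chosen by gene name, although earlier results of these data were known. For each of the 6 genes, every deposited peak inside the gene or within 10 kb of either end was taken, and the promoter was defined as 1 kb on either side of the gene start. These gene zones, 163.5 kb in all, held 21 of the 109205 narrowPeak peaks of replicate 1 and 17 of the 81300 of replicate 2. Overlapping peaks of the replicates were merged into regions, and the zones held 24 of 117702 regions.

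The peaks came from chromatin immunoprecipitation sequencing (ChIP-seq) through the HA tag of PRCC-TFE3, the fusion of the splicing-related protein PRCC with the transcription factor TFE3 found in a subset of TFE3-rearranged renal cell carcinomas. The host was HK-2, an established line of human proximal tubule cells, in which a Tet-On system expressed HA-PRCC-TFE3 from a transgene. There were 2 ChIP libraries and 1 input DNA library. The cells of all 3 libraries carried the transgene and received 0.2 µg/mL doxycycline for 24 h, so these data hold no uninduced cells, and binding of unfused TFE3 was not measured. Whether the line was 1 clone is not given in the sources used here. The libraries held an estimated 12235754 tags (replicate 1), 7418533 tags (replicate 2) and 21694931 tags (input DNA). Each library gave 1 value per measurement, and no comparison of conditions was possible. The files analysed here hold no RNA values, so the epithelial identity of the cells was not checked against expressed markers. Coordinates are in hg19, the build named in the submitters' processing notes.

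Keratins are the intermediate filament proteins of epithelia. Each filament is built from pairs of an acidic type I and a basic type II keratin, so epithelial cells express them in partners. *KRT8* (type II) and *KRT18* (type I) encode the partners of simple epithelia, including kidney tubules, and *KRT7* (type II) and *KRT19* (type I) are typical of ductal and other simple epithelia. *KRT5* (type II) is a keratin of basal cells in stratified epithelia, and *KRT17* (type I) is known from skin appendages and from injured epithelium. The type II genes lie in a cluster on chromosome 12, with *KRT18* beside *KRT8*, and the other type I genes lie in a cluster on chromosome 17. TFE3 belongs to the MiT/TFE family, whose members bind E-boxes, short elements of the form CANNTG, and prefer the form CACGTG.

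Promoter sequence was at hand for *KRT5*, which is shown because it was a member without a peak near its start. These are the 250 bases before the start that RefSeq gives, at chr12:52520395-52520644 of GRCh38.p14 on the minus strand. Capitals mark the matches to CANNTG.

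KRT5 promoter: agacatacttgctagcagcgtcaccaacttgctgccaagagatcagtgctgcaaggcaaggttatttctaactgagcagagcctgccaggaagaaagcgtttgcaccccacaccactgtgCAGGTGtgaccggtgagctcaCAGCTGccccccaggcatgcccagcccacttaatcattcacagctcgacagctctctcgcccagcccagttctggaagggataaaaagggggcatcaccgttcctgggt

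The matches begin 130 and 109 bases before the start. On either strand, this stretch contained neither CACGTG nor its extended form TCACGTGA, and likewise neither CATGTG (the core of the M-box, another MiT/TFE element) nor TGAGTCA (an AP-1 element). Among the 35116 RefSeq promoters, 61.8% of the stretches of this length contained CANNTG, which also matches CACGTG and CATGTG, 6.34% contained CACGTG, 0.854% contained TCACGTGA, 9.42% contained CATGTG and 4.20% contained TGAGTCA. The *KRT5* gene spans 5885 bp in hg19 as used here and 5820 bp in RefSeq, so the starts may differ. The distance between them was not measured. RefSeq promoter sequence was found for 2 of the 6 genes. That of *KRT8* belongs to a start 29279 bp from the end of the gene, whereas the gene as used here is 7898 bp long, so it was not used.

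To see which keratin genes carried PRCC-TFE3 at their start, the promoters were examined first. *KRT8*, *KRT18* and *KRT19* had a promoter peak in both replicates, and *KRT7*, *KRT5* and *KRT17* had none in either. In comparison, 5.06% of all 2 kb tiles of chromosomes 1 to 22 and X held a region shared by both replicates, and the value was 7.37% on chromosomes 12 and 17. Tiles include gene deserts and assembly gaps and are not promoters, so this is the level of the genome and not of gene starts. The genes that had a promoter peak were the simple-epithelium partners and *KRT19*, whereas those without were *KRT7* and the keratins of basal or injured epithelium.

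Within the wider zones, 5 of the 6 genes had at least 1 shared region, and *KRT5* had none. Among 25 kb tiles, 32.1% held a shared region, or 43.2% on chromosomes 12 and 17. The shared regions numbered 3 each at *KRT7*, *KRT8* and *KRT19*, 2 at *KRT18* and 1 at *KRT17*. Peaks covered 4.13% of the zone bases in replicate 1 and 3.44% in replicate 2, compared with 1.201% and 0.890% of chromosomes 1 to 22 and X.

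**Figure D1:**
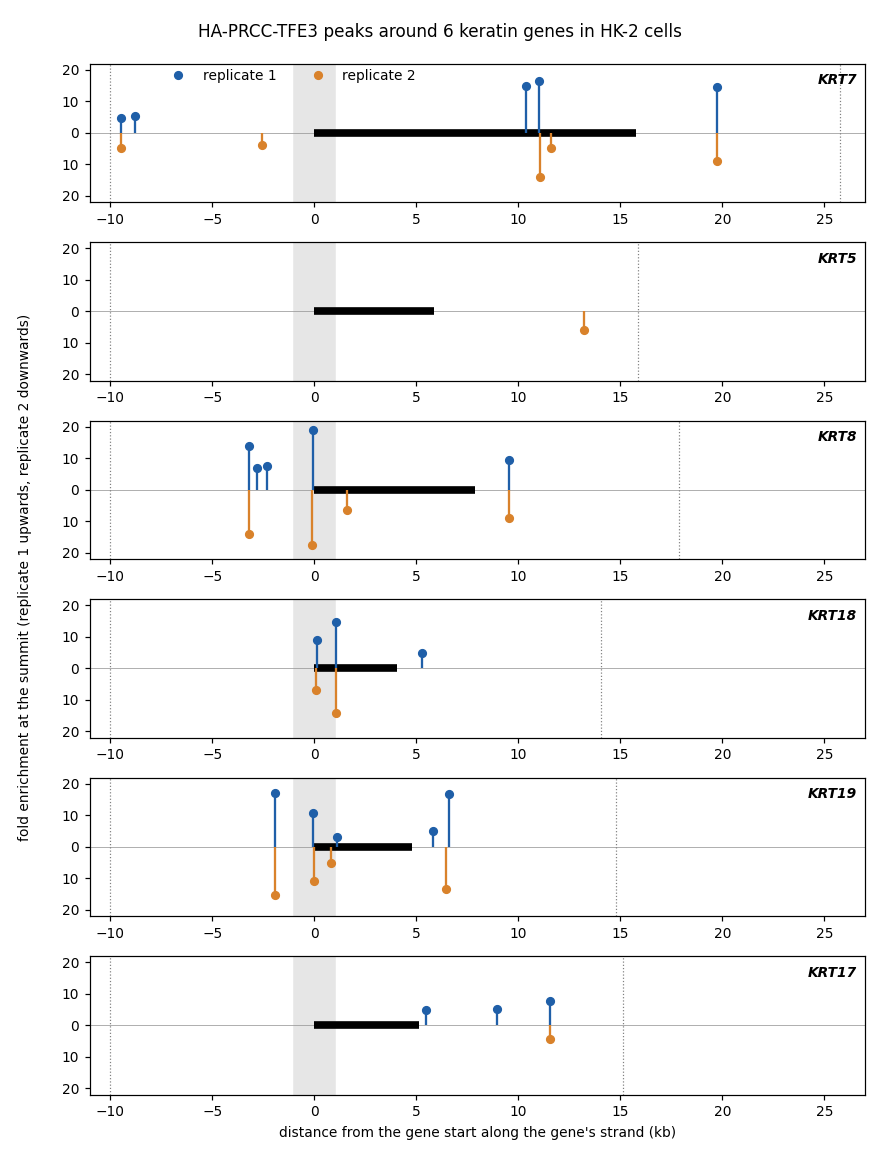
Position and strength of every narrowPeak peak in the 6 gene zones. The x axis is the distance of the summit from the gene start along the gene's strand in kb, and the height is the fold enrichment at the summit, with replicate 1 drawn upwards and replicate 2 downwards. Black bars are the genes, grey bands the promoters and dotted lines the limits of the zones. *KRT8*, *KRT18* and *KRT19* have peaks of both replicates in the grey band, and *KRT5* has a peak of replicate 2 alone.

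*KRT8* had the strongest peak of the 6 genes in both replicates, and it lay at the start. In replicate 1 this peak ran from 53298801 to 53299106 on chromosome 12, with its summit 84 bp upstream of the start. Its fold enrichment, the ratio over background that the authors' peak caller gave at the summit, was 19.2, with a −log10 q of 43.4. In replicate 2 the summit was 123 bp upstream, with a fold enrichment of 17.4 and a −log10 q of 32.9. Of all peaks in their lists, 91.8% and 91.7% had a lower fold enrichment, so its rank was alike in both libraries. The BED lists, which gave tag counts in fixed windows, held 39 tags at this site in replicate 1 and 26 in replicate 2. Per 10000000 tags of the library this was 31.9 (95% exact Poisson interval, 22.7 to 43.6) and 35.0 (22.9 to 51.4). The windows held 1 input tag, or 0.461 per 10000000. These intervals cover counting error only.

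A second strong site of *KRT8* lay 3.2 kb upstream of the start used here. There, the summits were 3217 bp and 3204 bp upstream of the start, with fold enrichments of 13.9 and 14.1. Replicate 1 had a further peak 2831 bp upstream, at a fold enrichment of 6.95, and the replicate 2 peak spanned both, so they formed 1 region of 769 bp. The window there held 25 tags in replicate 1, 21 tags in replicate 2 and 0 input tags. The third shared region was downstream of the gene, 1637 bp and 1665 bp past its end, with fold enrichments of 9.63 and 8.98. Its windows had the highest input of any in the zones, with 4 input tags beside 17 and 13 ChIP tags. The remaining *KRT8* peaks were found in 1 replicate only. They lay 2296 bp upstream in replicate 1, at a fold enrichment of 7.66, and 1581 bp inside the gene in replicate 2, at 6.25. *KRT8* is 7898 bp long as used here and 52670 bp in RefSeq, where it extends upstream as far as *KRT18*. Sites called upstream of *KRT8* here therefore lie inside that longer gene, and starts other than the one used were not examined.

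*KRT18*, the partner of *KRT8*, had its shared regions just inside the gene. The first was at the start itself, from 53342575 to 53342915, with summits 149 bp and 94 bp past the start. Its fold enrichments were 9.10 and 7.01, higher than 62.5% and 44.4% of the peaks in each list. The stronger region followed about 1 kb further in, from 53343487 to 53343920, with summits 1059 bp and 1068 bp past the start. There the fold enrichments were 14.9 and 14.2, with −log10 q values of 30.2 and 24.6, so it exceeded 84.4% and 85.4% of the peaks. Its edge overlapped the promoter as defined here, but its summit lay outside. The windows at the start held 18 and 11 tags and those of the second region 34 and 23 tags. The order was the same in both replicates, although the intervals of the sites overlapped: 14.7 per 10000000 (8.72 to 23.3) and 27.8 (19.2 to 38.8) in replicate 1, and 14.8 (7.40 to 26.5) and 31.0 (19.7 to 46.5) in replicate 2. A peak 1230 bp past the end of *KRT18* was found in replicate 1 alone, at a fold enrichment of 4.79. In RefSeq, the *KRT8* gene, on the opposite strand, extends so far upstream that it overlaps the start of *KRT18*. Occupancy near the *KRT18* start therefore cannot be given to *KRT18* alone. The distance of the shared regions from the RefSeq start of *KRT8* was not measured, so this limit applies to the stronger region too.

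*KRT19*, which encodes the smallest keratin, had a peak at its start and stronger ones on either side of the gene. At the start, from 39684505 to 39684835 on chromosome 17, the summits were 41 bp upstream in replicate 1 and 7 bp inside the gene in replicate 2. The fold enrichments there were 10.7 in both replicates, above 70.1% and 72.8% of the peaks. The strongest *KRT19* peak was 1938 bp upstream in replicate 1, at 39686399 to 39686754, with a fold enrichment of 16.96 and a −log10 q of 37.6. In replicate 2 its summit was 1941 bp upstream, with a fold enrichment of 15.3 and a −log10 q of 28.2. The summits of this site were 3 bp apart. Its windows held 37 and 25 tags, whereas those at the start held 22 and 17 tags.

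Downstream of *KRT19*, a shared region of 627 bp reached a fold enrichment of 16.9 in replicate 1 and of 13.3 in replicate 2. Its summits were 1811 bp and 1662 bp past the end of the gene. They lay 149 bp apart, the widest distance among the 12 shared regions, whose median was 22.5 bp. RefSeq places *KRT15*, a keratin gene of basal cells, next to *KRT19* on this side. The distance of the site from *KRT15* was not measured. Weaker peaks inside or just past *KRT19* did not overlap between the replicates. In replicate 1 they had fold enrichments of 3.15 and 5.09, and in replicate 2 there was 1 such peak, at 5.12.

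*KRT7* showed a different arrangement, with its strongest region deep inside the gene and no peak within 1 kb of the start. The region ran from 52637166 to 52638219 on chromosome 12. Replicate 1 had peaks with summits 10384 bp and 11024 bp past the start, at fold enrichments of 15.0 and 16.6. Replicate 2 had 1 peak of 994 bp across both, with a summit 11051 bp past the start and a fold enrichment of 14.1. At this width it was broader than 99.4% of the peaks in its list. The BED lists resolved 2 windows in each replicate, with 28 and 30 tags in replicate 1 and 14 and 20 tags in replicate 2.

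The second strong *KRT7* site was 4005 bp past the end of the gene in replicate 1 and 4002 bp past it in replicate 2. Here the replicates differed in rank: the fold enrichments were 14.4 and 8.98, above 83.1% and 62.2% of the peaks. The tag counts were 27 and 13, or 22.1 per 10000000 (14.5 to 32.1) and 17.5 (9.33 to 30.0), so the intervals overlapped. A weak shared region lay 9460 bp and 9478 bp upstream, at fold enrichments of 4.79 and 4.81. The nearest peak to the start was 2577 bp upstream and was found in replicate 2 alone, at a fold enrichment of 3.85. *KRT7* is 15756 bp long as used here and 22611 bp in RefSeq, so starts other than the ones used were not examined.

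*KRT5* and *KRT17*, the keratins of basal or injured epithelium, had 0 and 1 shared region, and most 25 kb tiles of the genome likewise had none. In the *KRT5* zone, replicate 1 had no peak, and its nearest summit to the start was 62690 bp upstream. Replicate 2 had 1 peak, 7320 bp past the end of the gene, with a fold enrichment of 5.78 and 7 tags in its window. Only 0.1% of the BED peaks of replicate 2 had fewer tags. Its level was 9.44 per 10000000 (3.79 to 19.4), and the weakest windows that the replicate 1 list holds, with 7 tags or 5.72 per 10000000, lay within that interval.

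In the *KRT17* zone, all peaks lay past the end of the gene. They covered 3.20% of its bases in replicate 1 and 1.07% in replicate 2, compared with 1.201% and 0.890% over chromosomes 1 to 22 and X. The value of replicate 2 came from 1 peak. RefSeq places the keratin gene *KRT16* next to *KRT17* on the side past its end. The distance of the peaks from *KRT16* was not measured, so they cannot be given to *KRT17* alone. The shared region, from 39769097 to 39769489, was 6419 bp and 6409 bp past the end of *KRT17*. Its fold enrichments were 7.66, above 51.4% of the replicate 1 peaks, and 4.21, above 4.1% of the replicate 2 peaks. Its window held 11 tags in replicate 1, beside 2 input tags, and the replicate 2 BED list had no window in this zone. The other *KRT17* peaks, with fold enrichments of 5.27 and 4.79, were in replicate 1 alone. *KRT17*, *KRT8*, *KRT18* and *KRT19* have near-identical pseudogene copies elsewhere in the genome. How the authors placed reads that match several copies is not given in the sources used here, so peaks inside these genes are less certain than those in their flanks.

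**Figure D2:**
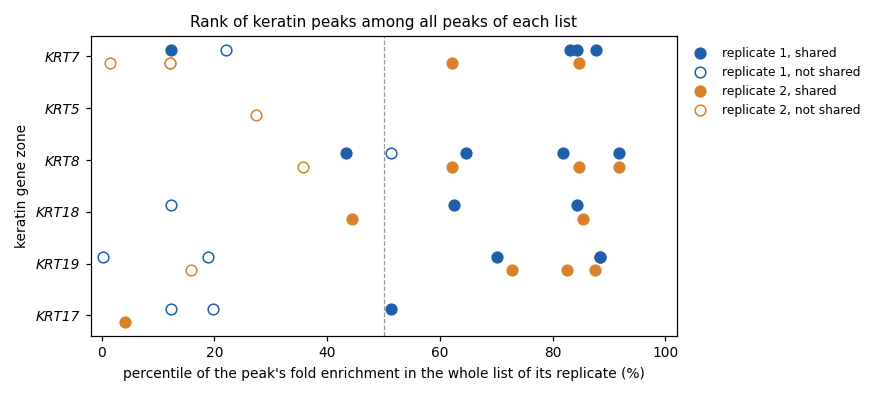
Rank of each keratin peak among all peaks of its own narrowPeak list. The x axis is the percent of peaks in the list with a lower fold enrichment, the y axis the gene zone, and colours the replicates. Filled points belong to regions shared by both replicates and open points to regions of 1 replicate. The dashed line marks the middle of the list. Filled points of *KRT8*, *KRT18*, *KRT19* and *KRT7* reach beyond 80%, and the points of *KRT5* and *KRT17* lie at 51.4% or below.

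The agreement between the replicates was then considered for the keratin peaks together. Of the 24 regions, 12 were shared (95% Wilson interval of the share, 31.4% to 68.6%), compared with 59.8% of all regions, so the keratin zones did not stand out in this respect. A further 7 regions were found in replicate 1 only and 5 in replicate 2 only. Peaks in shared regions had fold enrichments with a median of 14.2 in replicate 1 (range, 4.79 to 19.2) and 12.004 in replicate 2 (4.21 to 17.4). The others had medians of 5.09 (3.15 to 7.66) and 5.12 (3.85 to 6.25). The ranges of shared and other peaks thus overlapped, but each peak with a fold enrichment above 7.66 was shared. With −log10 q above 5, that is q below 1e-05, 16 of the 21 peaks of replicate 1 and 12 of the 17 of replicate 2 were kept, compared with 82.4% and 78.2% of the whole lists.

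Over all keratin peaks, the median fold enrichment was 9.10 in replicate 1 and 8.98 in replicate 2, compared with 7.49 and 7.32 in the whole lists. Of the peaks, 13 of 21 and 9 of 17 were above the median of their list. The strength of the keratin peaks was thus within the ordinary range of the lists, in which the highest fold enrichments were 74.6 and 105.4.

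**Figure D3:**
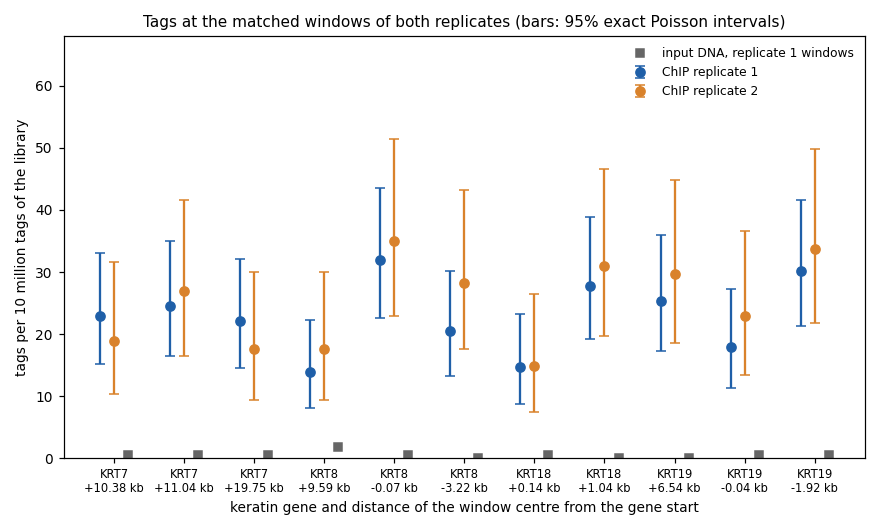
ChIP and input tags at the 11 keratin windows matched between the BED lists. The x axis gives the gene and the distance of the window centre in replicate 1 from the gene start, and the y axis the tags per 10000000 tags of the library. Circles are the ChIP replicates with 95% exact Poisson intervals, and squares are input DNA in the replicate 1 windows. In each window the intervals of the replicates overlap, and the input lies below both.

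Tag counts were compared at 11 keratin windows that the BED lists of both replicates held. The counts themselves do not rest on the input, but the windows had been called against it. Replicate 2 contributed 205 of 513 tags, or 39.96% (95% Wilson interval, 35.8% to 44.3%). Its share of the tags in all 55655 matched windows was 39.8%, and that of the library totals was 37.75%. In none of the 11 windows did the Poisson intervals of the replicates separate. Windows called in 1 list alone were left out, so this agreement depends in part on how the windows were chosen. The highest ratio of replicate 2 to replicate 1 per 10000000 tags was 1.39, at the upstream site of *KRT8*, and the lowest was 0.79, at the downstream site of *KRT7*. In replicate 1, the intervals of the *KRT8* start (22.7 to 43.6) and of the weakest matched window, downstream of *KRT8* (8.09 to 22.2), did not overlap. In replicate 2, the intervals of these windows overlapped (22.9 to 51.4 and 9.33 to 30.0). The weakest matched window of replicate 2 was at the *KRT18* start (7.40 to 26.5), and its interval also overlapped that of the *KRT8* start. Windows next to each other in the order of strength had overlapping intervals in both replicates.

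Input DNA served as the background. None of its 286 peaks lay in a keratin zone, and the nearest was 1601 kb from *KRT17*. The 15 keratin windows of replicate 1 held 353 ChIP tags, or 288.5 per 10000000, and 17 input tags, or 7.84 per 10000000. The 12 windows of replicate 2 held 212 ChIP tags, or 285.8 per 10000000, and 10 input tags, or 4.61 per 10000000. Input was 0 tags in 4 and 6 of these windows, and the sums count them as 0. A count of 0 allows a level of up to about 3 tags, or 1.38 per 10000000. The exact Poisson interval, which is two-sided, reaches 1.70 per 10000000. Because the windows had been called for their ChIP tags against this input, the excess describes how they were chosen and was not tested. The input library was the same for both replicates.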

How the data were processed

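ChIP-seq peaks of 2 HA-PRCC-TFE3 samples and 1 input DNA sample were analysed. The authors deposited 1 narrowPeak list per ChIP sample, called separately against input with MACS in Strand NGS according to the study's methods, with a fold enrichment ratio and a −log10 q value per peak. The lowest −log10 q values were 1.31 and 1.35. The study's methods also name a stringent p-value threshold for binding sites. Whether the weaker peaks of these lists would pass that threshold was not tested. The authors also deposited BED lists, read by column position because their header is displaced, with tag counts, a signal per 10000000 tags and a signal of scaled input tags, and a fold ratio over input. The caller of the BED lists and the aligner are not given in the sources used here. The build, hg19, comes from the submitters' processing notes.

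Gene coordinates in hg19 were given with the list of members. The members and lists were chosen with earlier results of these data known. All 6 genes were named, with the strongest peak of each zone and the promoter peaks of *KRT8* and *KRT18* in full. CANNTG was added to the motifs after the sequence was seen. Exon or intron status and other keratin genes were not analysed here, since no hg19 annotation was used. RefSeq (GRCh38.p14) gave gene order, gene extents and promoter sequence, and none of its coordinates was compared with the peaks. Peaks overlapping by 1 bp were merged into regions. Input tags per window were recovered from tag count and fold. Within 0.1 tags, 100% of values were whole. Library totals were estimated from counts and signal. Zones, regions and tiles were computed with Python 3.11.15, pandas 2.3.3 and SciPy 1.17.1, and the functions were tested on simulated data. Shares have Wilson intervals and tags exact Poisson intervals, at 95%.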

Additional observations from a re-analysis of the deposited data

How the results depend on the processing

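The 3 genes with a promoter peak in both replicates stayed 3 with the BED lists, with q below 1e-05, with promoters of 500 bp or 2.5 kb on either side, by summit, and when either replicate was left out (3 to 3). The number of regions was 17 to 21 when either replicate was left out, compared with 24. Of 63 alternative values, 29 stayed within the limits and 34 moved: counts were allowed a factor of 1.5, medians and covered shares the spread between the replicates, and other shares their interval. No test was run, so none could lose significance. No paired analysis was possible because no result comes from a test and the ChIP samples form 1 group.

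Counts followed the flank by construction. With a flank of 20 kb the peaks numbered 37 and 29 and the shared regions 24, and with no flank the peaks numbered 7 and 8 and the shared regions 5. Median fold enrichment in replicates 1 and 2 was 12.28 and 12 with q below 1e-05, 10.14 and 9.86 with a flank of 5 kb, 7.68 and 8.32 with 20 kb, and 14.88 and 8.87 with no flank. The BED lists gave 49.65 and 68.72, as their fold over sparse input tags is another quantity. Peaks covered 1.91% and 1.56% of zone bases with the BED lists, 3.48% and 2.75% with q below 1e-05, 5.68% and 4.79% with a flank of 5 kb, and 4.65% and 5.66% with no flank. Among tiles of 20 kb and 50 kb, 27.9% and 46.3% held a shared region. Among 25 kb tiles the share was 28.8% with the BED lists, 28.2% with q below 1e-05 and 43.2% on chromosomes 12 and 17. Among tiles of 1 kb and 5 kb it was 3.13% and 10.2%, and among 2 kb tiles 3.88%, 4.23% and 7.37% in the same order. With 7418533 tags in replicate 2, a peak found in replicate 1 alone cannot be taken as absent there.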

Other observations

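PRCC-TFE3 sites also lay between the keratin genes examined. Between the zones of *KRT8* and *KRT18*, a stretch of 23.8 kb that the *KRT8* gene covers in RefSeq, there were 3 regions, and 2 were shared. At the strongest, the fold enrichment was 12.98 in replicate 1 and 15.04 in replicate 2. RefSeq places the keratin genes *KRT9*, *KRT14* and *KRT16* between the genes *KRT19* and *KRT17*. Whether each of them lies between the zones or inside a zone was not measured. Between the zones of *KRT19* and *KRT17*, a stretch of 71.0 kb held 5 regions, and 5 were shared. The highest fold enrichments there were 19.2 and 19.9, compared with 19.2 and 17.4 in the 6 zones.

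The long stretches of the chromosome 12 cluster held more regions but fewer shared regions per 100 kb. RefSeq lists 12 keratin genes between *KRT5* and *KRT8* and 10 between *KRT7* and *KRT5*, counted from gene to gene and not from zone to zone. Between the zones of *KRT5* and *KRT8*, 356.7 kb held 19 regions, of which 9 were shared. The fold enrichment there reached 25.1 in replicate 1 and 15.4 in replicate 2. Between the zones of *KRT7* and *KRT5*, 245.6 kb held 12 regions, of which 9 were shared, with highest values of 24.4 and 20.4. The shared regions numbered 2.52 and 3.66 per 100 kb in these stretches, 7.04 between *KRT19* and *KRT17* and 8.40 between *KRT8* and *KRT18*, compared with 7.34 in the 6 keratin zones and 2.32 over chromosomes 1 to 22 and X. These stretches were picked after the peaks of the zones had been seen and were not tested.

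Just outside the 10 kb limit, the nearest peaks were 10.2 kb upstream of *KRT19*, with fold enrichments of 9.07 and 5.31, and 10.8 kb upstream of *KRT7*, with 6.42 and 7.96. Just inside it were the *KRT7* peaks 9460 bp and 9478 bp upstream, with 4.79 and 4.81.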
